A study of Homo sapiens with 4 samples.

Results

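The ALK locus was examined on chromosome 2 in a human neuroblastoma line, SH-SY5Y, whose cells extend neurites and become more like neurons in retinoic acid. Its members are the listed CHD5 peaks and H3K27me3 regions that share at least 1 bp with the ALK gene span plus 50 kb on each side (hg19). The gene span was taken as 29.415 to 30.145 Mb of chromosome 2. This gave 41 of 32543 CHD5 peaks and 0 of 257073 H3K27me3 regions. The series holds 4 chromatin libraries, 1 per group, all from SH-SY5Y cells kept for 8 days in 10 uM retinoic acid. One is a streptavidin pull-down from cells expressing FBio-CHD5, a tagged CHD5. Another is an H3K27me3 precipitation from the same FBio-CHD5 cells. The others are a streptavidin pull-down from cells expressing FBio-Ctrl and an input library from FBio-CHD5 cells, and no region list of these was used here. The profile therefore concerns a tagged protein expressed in 1 cell line. It has no replicate, so no value below carries a replicate error and no test was made.

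ALK encodes a receptor tyrosine kinase that is expressed in the developing nervous system. Activating mutations and amplification of ALK are known drivers of neuroblastoma, and SH-SY5Y is known to carry an activating mutation in the kinase domain. CHD5 is a chromodomain helicase of the NuRD type that remodels nucleosomes, and its gene, on the short arm of chromosome 1, is often lost in neuroblastoma. H3K27me3 is the histone mark written by Polycomb repressive complexes and is typical of silenced developmental genes. The locus was chosen by the high number of CHD5 peaks, the score of its strongest peak and the lack of H3K27me3 in these same lists. Its count, spacing, widths and scores are a description of the lists and support no claim that ALK is special.

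ALK lies on the reverse strand, so its start is at the upper end of the span, near 30.145 Mb, and its end near 29.415 Mb. The span is 730 kb long as placed here to the nearest kb, and RefSeq gives the gene 728813 bp on GRCh38.p14. Its nearest protein-coding neighbours in RefSeq are YPEL5 beyond the start and CLIP4 beyond the end. The sequence before the start is shown because a CHD5 peak lies at that edge and because H3K27me3 is commonly found at CpG-rich starts. These are the 250 bases before the RefSeq start of ALK on GRCh38.p14, reverse strand, with each CG dinucleotide in capitals.
ALK start: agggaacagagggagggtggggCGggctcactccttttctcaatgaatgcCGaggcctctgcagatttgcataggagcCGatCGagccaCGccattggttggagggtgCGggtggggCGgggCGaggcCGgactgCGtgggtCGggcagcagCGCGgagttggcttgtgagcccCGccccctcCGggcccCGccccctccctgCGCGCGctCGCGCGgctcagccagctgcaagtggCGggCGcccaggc
The stretch holds 24 CG dinucleotides and 71.6% G or C. At least 24 CG dinucleotides were found before 23.7% of the 35116 RefSeq starts in the table, whose median was 11. The letters GGGCGG, searched on both strands and known as a GC box, occurred 4 times here and at least once before 42.6% of starts. Each match contains a CG dinucleotide counted above. RefSeq lists another ALK start inside the gene. The 250 bases before it held 2 CG dinucleotides and 53.6% G or C, and no match to the GC box letters. The internal start was not placed on hg19, so no CHD5 peak is assigned to it.

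CHD5 peaks lay along nearly the whole of ALK and not only at its start. Of the 41 peaks, 39 were inside the gene span, 1 crossed its start edge and 1 was in the flank beyond its end. Together they covered 167 kb, or 20.1% of the locus. The first peak in map order, from 29386846 to 29389000, is that in the end flank, with a score of 68.8. The score is the authors' value from the peak caller, has no stated scale and starts at 50 in the CHD5 list. Just outside the limits of the locus, the next peak below ended 12.0 kb away with a score of 101.5, and the next above began 51.8 kb away with a score of 495.

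The start of the gene carried 3 peaks that ranked 15, 17 and 24 of the 41 by score. In the whole list 20.5%, 24.4% and 34.0% of peaks scored higher than these. The peak from 30144467 to 30147218 is 2752 bp wide with a score of 249, and crosses the edge near 30.145 Mb. Whether the start base itself lies inside it cannot be read from a span given to the nearest kb. The peak from 30138155 to 30141814 had a score of 220.1, and that from 30126677 to 30129244 a score of 168. The next peak along the gene ended at 30040202, which left a gap of 86.5 kb, the widest at the locus. The first 100 kb of the gene thus held 2 peaks by midpoint and was 6.76% covered.

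**Figure D1:**
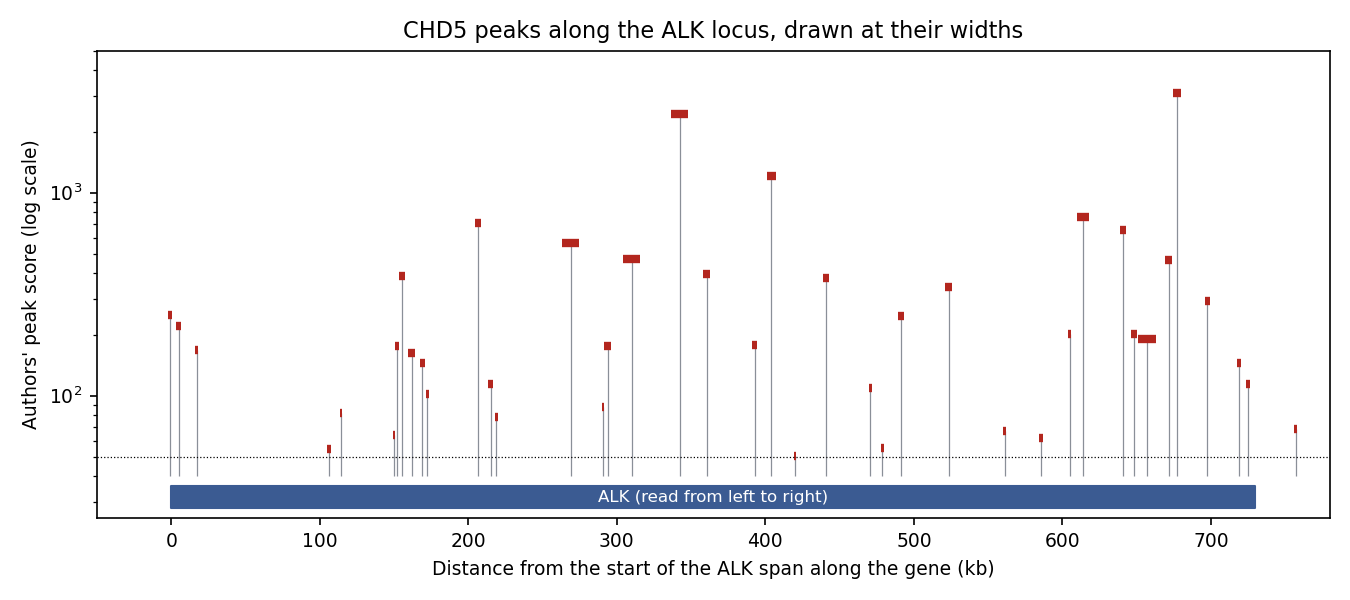
CHD5 peaks along the ALK locus, with distance from the start of the gene span in kb on the x axis and the authors' score on a log y axis. Each red bar is 1 of the 41 peaks drawn at its width, grey stems lead down to the gene, and the dotted line is the smallest score in the list, 50. The highest bars lie 342, 404 and 677 kb into the gene, away from its start.

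Further along the gene the cover rose and fell in blocks. From 100 to 200 kb after the start there were 8 peaks and 21.6% cover, with a highest score of 390. From 200 to 300 kb there were 6 peaks and 26.7% cover. From 300 to 400 kb there were 4 peaks, but these were wide, and cover was 31.7%. It was 19.0% from 400 to 500 kb, with 6 peaks, and 8.99% from 500 to 600 kb, with 3. The last 130 kb had 10 peaks and 37.0% cover, the highest share of the stretches compared. The parts within 365 kb of either end were alike in number, with 20 peaks in the end part and 19 in the start part, and median scores of 201 in the end part and 168 in the start part.

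**Figure D2:**
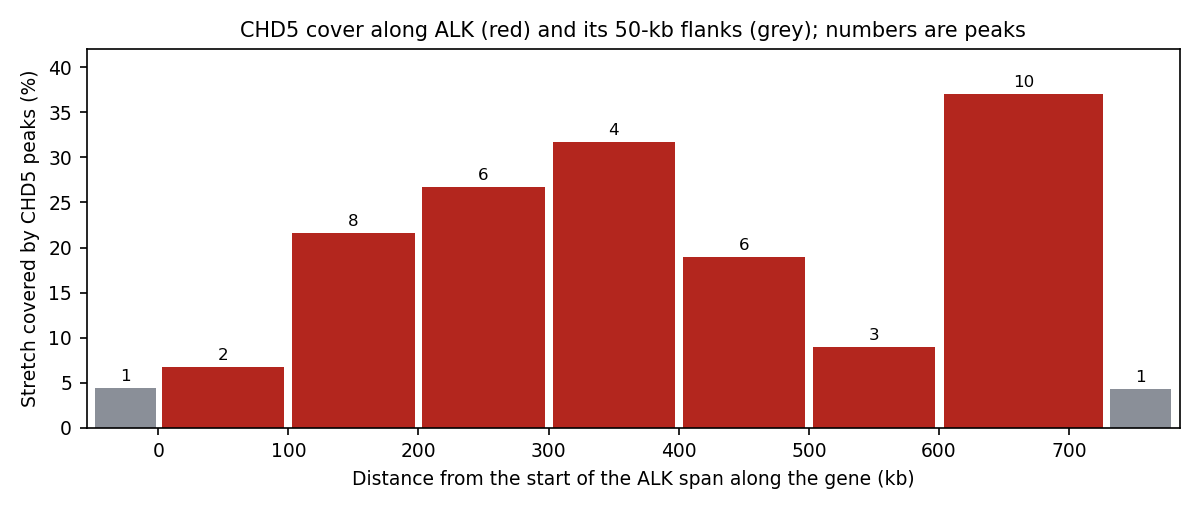
Share of each stretch covered by CHD5 peaks, in percent, against distance from the start of the ALK span in kb. Red bars are stretches of the gene, grey bars its 50-kb flanks, and the numbers count peaks by midpoint, so the peak across the start edge stands in the flank. Cover is lowest within the gene in the first 100 kb, 6.76%, and highest in the last 130 kb, 37.0%.

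The highest score of the locus belonged to the peak from 29465388 to 29470592. It is 5205 bp wide and its midpoint lies 677 kb from the start of the gene and 53.0 kb from its end. Its score of 3100 is the highest in the list and is shared by 10 peaks, 0.0307% of the list, while the next score below it was 2753. The value may be an upper limit of the caller's scale in this list and not a measured height, so the order of these 10 is not resolved. The highest score in the H3K27me3 list was 3233, and whether either value is such a limit was not tested. The other CHD5 peaks with a score of 3100 are 2500 to 12958 bp wide, and the strongest peak of the locus ranks 4 of the 10 by width. Its neighbour from 29471333 to 29475713 begins after a gap of 740 bp and had a score of 466. On that side the next peak, from 29482215 to 29494131, is the widest of the locus at 11917 bp but had a score of only 190.5. On the other side lie the peaks from 29445913 to 29449112, with a score of 293, and from 29424428 to 29427582, with a score of 144. The peak nearest to the gene's end, from 29418508 to 29421158, had a score of 114. Joining peaks up to 10 kb apart placed the strongest peak in a block of 5 peaks from 29465388 to 29506238, which spanned 40.9 kb and was the longest such block of the locus.

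Scores at the locus ran from 50.5 to 3100 with a median of 177. Besides the strongest peak, the peak from 29796915 to 29808689 had a score of 2439.6, which was rank 18 in the whole list, and that from 29737874 to 29744053 a score of 1206, rank 140. Scores of at least 1000 were thus held by 3 of the 41 peaks, against 14 of 896 in the rest of the first 48 Mb of chromosome 2 and 0.845% of the whole list. The next in order were the peaks from 29526954 to 29535023 at 760.5, from 29936210 to 29940513 at 712 and from 29502486 to 29506238 at 652. The remaining scores among the highest 10 were 562, 469, 466 and 395. The upper quartile of the list, 217, was reached by 17 of the 41 peaks, against 279 of 896 in the rest of the first 48 Mb and 25% of the list. At the low end 10 of the 41 peaks scored under 100, against 333 of 896 in the rest and 42% of the list. Scores below the lower quartile of the list, 74.4, were held by 7 of the 41, against 203 of 896 in the rest and 25% of the list. As shares, scores under 100 made up 24.4% at the locus and 37.2% in the rest, and scores below the lower quartile 17.1% and 22.7%. With 41 peaks from 1 library, no conclusion is drawn from these shares.

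Width followed score, with a Spearman rho of 0.829 across the 41 peaks, which share 1 library. This was general to the list, with a rho of 0.729 in the rest of the first 48 Mb, 0.801 on chromosome 2 beyond it and 0.749 over chromosomes 1 to 22 without the locus. The median width was 3200 bp, with quartiles of 2155 and 4381 bp. Of the 41 peaks, 30 reached the upper quartile of the list, 2360 bp, against 447 of 896 in the rest of the first 48 Mb and 25% of the list. At least 5 kb was reached by 8 peaks at the locus, by 82 of 896 in the rest of the first 48 Mb, and by 2.71% of the list. The 4 widest measured 11917, 11775, 11688 and 10984 bp, and the fifth 8070 bp. These 4 were the only ones at the locus of at least 10 kb, a width reached by 4 of the 896 peaks in the rest of the first 48 Mb and by 0.181% of the list. The widest 4 scored from 190.5 to 2439.6. The 5 narrowest, from 1094 to 1734 bp, scored from 50.5 to 109.

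The 40 gaps between neighbours had a median of 9.23 kb, with quartiles of 3.29 and 21.2 kb. The narrowest was 17 bp, between the peaks that end at 29853424 and begin at 29853442. Gaps of 142 and 326 bp separated 3 peaks between 29987745 and 29996046. After the gap of 86.5 kb, the widest were 43.6 kb, from 29881595 to 29925203, and 34.3 kb, from 29584877 to 29619161. Joining peaks up to 3 kb apart left 32 units, of which 25 were single peaks. The other 16 of the 41 peaks had a neighbour that close, against 282 of 896 in the rest of the first 48 Mb and 28.7% of the list. Joining up to 10 kb left 19 units, of which 8 were single. At that distance 33 of the 41 peaks had a neighbour, against 470 of 896 in the rest and 48.1% of the list. Such counts rise with density, which was high at the locus.

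The locus was then set against the rest of chromosome 2 from 0 to 48 Mb, which held 896 CHD5 peaks. Density was 49.4 peaks per Mb at the locus and 19.0 per Mb in the rest, a ratio of 2.60, and cover was 20.1% at the locus and 5.42% in the rest. Median width was 3200 bp at the locus against 2345.5 bp in the rest, and the median score was 177 against 133. The median gap was 9.23 kb at the locus against 21.3 kb in the rest. Gaps of at least 20 kb made up 12 of 40 at the locus and 465 of 894 in the rest. The distributions overlapped widely, with scores from 50.5 to 3100 at the locus and from 50.03 to 3100 in the rest.

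The first 48 Mb itself stood apart from the remainder of the chromosome. Beyond 48 Mb there were 10.8 peaks per Mb with a median width of 1532 bp. The rest of the first 48 Mb was 1.77 times as dense and its median peak 1.53 times as wide. SH-SY5Y is known to carry extra copies of part of the short arm of chromosome 2. Copy number was not measured here, and its part in the number, width or score of peaks at ALK was not tested. The density at the locus was 4.59 times that beyond 48 Mb and 4.41 times that of chromosomes 1 to 22. Both lengths were counted to the last listed region of each chromosome, with stretches that hold no listed region included.

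**Figure D3:**
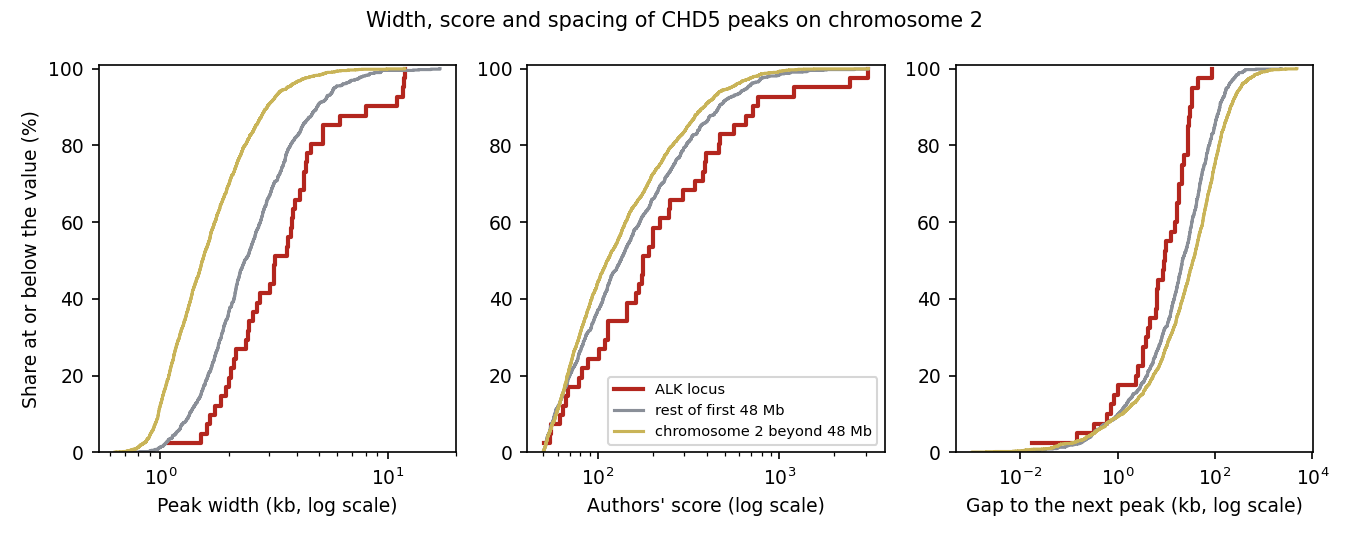
Cumulative share of CHD5 peaks, in percent, by width in kb, authors' score and gap to the next peak in kb, each on a log x axis. Red is the ALK locus (41 peaks), grey the rest of the first 48 Mb (896 peaks) and yellow chromosome 2 beyond 48 Mb (2100 peaks). Median widths are 3200 bp at the locus, 2345.5 bp in the rest of the first 48 Mb and 1532 bp beyond it, and the red gap curve lies to the left, with a median of 9.23 kb.

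Windows of 830 kb laid end to end from the locus gave a finer comparison. The locus held 41 peaks, and the 56 other windows of the first 48 Mb held a median of 14.5, with a range of 0 to 38. None of these 56 reached 41, a share of 0%. The placing of the windows mattered, since they were laid out from the locus. With windows at every 10 kb, 0.769% held at least 41 peaks, all in 1 place between 42750001 and 43960000. The highest count there was 47 peaks, from 43000001 to 43830000. That window was 16.4% covered, with a median width of 2184 bp, a highest score of 1150 and no peak of at least 10 kb. The locus thus had fewer peaks than this window but wider ones and more cover. Over chromosomes 1 to 22, 0.405% of 3456 other windows laid end to end held at least 41 peaks. Of the 3254 with a region of either list, 0.430% did. By cover, the locus ranked 2 of 3457, after a window on chromosome 1 from 156040001 to 156870000 with 20.8%. Outside chromosome 2 the windows were laid from the start of each chromosome, and other placings were not tried there. The shares and the rank therefore hold for this layout only.

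The density was lower on either side of the locus, as is likely beside a locus chosen by its high count. The adjoining window below, which begins at 28535001, held 16 CHD5 peaks, and that above, from 30195001 to 31025000, held 8. Cover was 5.33% in the window below and 2.82% in that above.

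**Figure D4:**
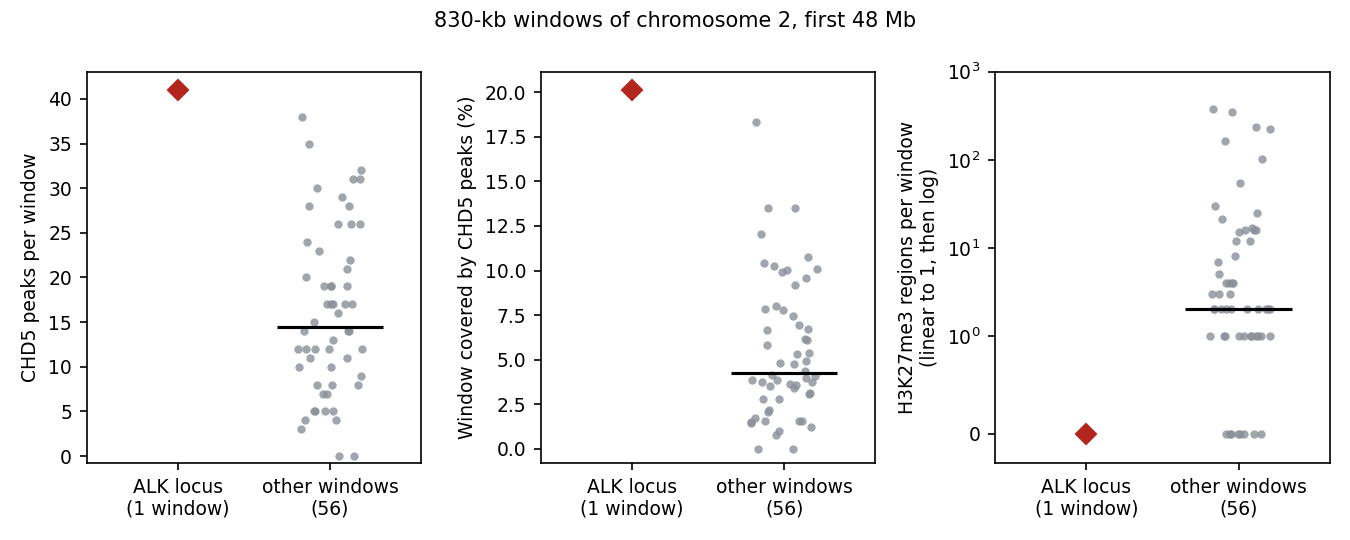
CHD5 peaks, CHD5 cover in percent and H3K27me3 regions in 830-kb windows of the first 48 Mb of chromosome 2, laid end to end. The red diamond is the ALK locus, grey points are the 56 other windows and the black line is their median. The locus has 41 peaks, 20.1% cover and 0 H3K27me3 regions.

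No H3K27me3 region was listed in ALK or its flanks. The rest of the first 48 Mb held 1906 regions, or 40.4 per Mb. Absence was common at this scale: 8 of the 56 other windows, or 14.3%, had no region, and the median window had 2. In those 8 windows the number of CHD5 peaks ran from 7 to 28 with a median of 17. Regions scoring below the list's minimum of 50 are not in the list, and the depth of the library is unknown, so a weaker mark over ALK would not appear here.

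The nearest listed regions on both sides were small and isolated. On the side of the gene's end, a region of 66 bp from 29034688 to 29034753 lay 380.2 kb from the span, with a score of 119. On the side of the start, a region of 139 bp from 30865525 to 30865663 lay 721 kb away, with a score of 53.9, where the list begins at 50. The nearest domains of at least 5 kb, made by joining regions up to 3 kb apart, were farther off. That beyond the start, from 31695545 to 31702767, was 1551 kb from the span and had 9 regions. That beyond the end, from 20860477 to 20873238, was 8542 kb away and had 15 regions. Neither domain held a CHD5 peak. They are only 7.22 and 12.8 kb wide, and the share of all such domains without a peak was not counted, so nothing is read from this.

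All CHD5 peaks of the locus were therefore far from listed H3K27me3. None of the 41 overlapped a region, which was fixed in advance by choosing a locus without listed regions. In the rest of the first 48 Mb 21 of 896 did, and 2.19% in the whole list. None lay within 10 kb of a region either, since the nearest was 330.2 kb from the locus. That close were 62 of 896 in the rest and 7.77% of the list. The distance to the nearest region ran from 352 to 901 kb with a median of 716 kb, against a median of 184 kb in the rest. More than 400 kb separated 38 of the 41 from any region, against 179 of 896 in the rest and 20.6% of the list. All of these peaks lie in the same stretch without the mark, so the distances are not 41 separate observations.

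**Figure D5:**
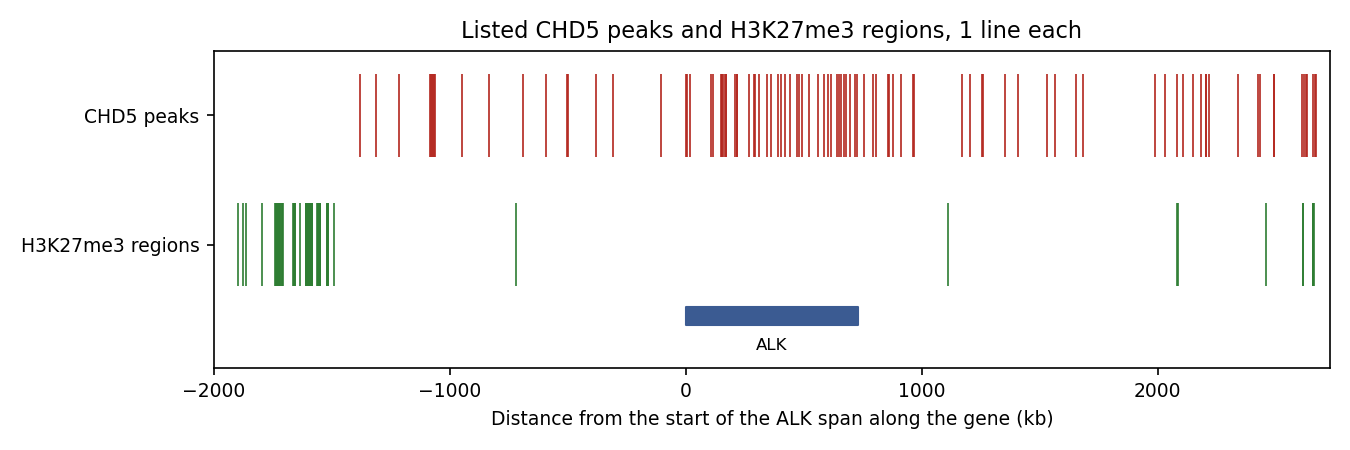
Listed CHD5 peaks (upper row) and H3K27me3 regions (lower row) around ALK, 1 line each, against distance from the start of the gene span in kb. The blue bar is the gene span. CHD5 lines crowd over ALK, and the nearest H3K27me3 lines stand 721 kb before the start and 380.2 kb past the end.

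The stretch free of H3K27me3 around ALK was 1831 kb long, the second longest between neighbouring regions on the first 48 Mb. It held 56 CHD5 peaks, more than any other such stretch of the segment. Outside the locus the same stretch held 15 peaks, or 14.99 per Mb, against 49.4 per Mb at the locus. Of the 16 stretches of at least 1 Mb without H3K27me3, the one around ALK ranked 4 by CHD5 density, at 30.6 per Mb. The 16 ranged from 5.56 to 42.1 per Mb with a median of 19.5. Within the ALK stretch the peaks crowded at the gene. The locus was chosen by its peak count and its lack of the mark, so these values only describe the lists. A relation between the mark and the density of CHD5 peaks was not tested.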

How the data were processed

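Groups were taken from the sample titles. Fixation was with 1% formaldehyde and shearing by sonication, per the labels' protocols, before Illumina sequencing. Both lists are MACS peak calls of 1 library each, per the file headers, on hg19, per the submitters' processing notes. The score of each row was deposited by the authors as their caller gave it. The aligner, the MACS version and threshold, and the library used as background were not given in the sources used here. Without a matched background, chromatin that shears or binds beads readily can be listed too.

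Rows sharing at least 1 bp with the locus were taken, which bedtools 2.31.1 also counted as 41 and 0. Distances, gaps, joined blocks and windows came from Python 3.11.15 with numpy 2.4.6 and scipy 1.17.1, and plots from matplotlib 3.10.9. Coordinates are counted from 1. All 5 interval routines were exact in 200 simulations. Depth is unknown, as neither list gives reads.

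The locus, its limits and all classes of width, score and gap were chosen with earlier results of these data known. Peaks named are the 10 highest and 5 widest or narrowest, those beside the 3 widest and narrowest gaps and the gene's edges, and the strongest peak with its neighbours. No hg19 annotation or sequence was used, so exons, introns and peak sequences are not given. RefSeq tables on GRCh38.p14 gave names, length, strand and the bases before the start. With 1 library per group, no replicate could be left out.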

Additional observations from a re-analysis of the deposited data

How the results depend on the processing

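With no replicates, a value was taken as unmoved when it stayed within 1.5 times. The number of CHD5 peaks stayed within that in 4 of 5 alternatives and fell to 27 with scores at or above the list's median. Most of the 4 could move the count only little. It was 40 without the flanks, 40 without the strongest peak and 41 by midpoints. The density ratio ran from 2.46 to 4.59 over 8 alternatives. All lay above 1, as is likely for a locus chosen by its high count in this same list. The ratio moved to 4.00 against the rest of chromosome 2, 4.59 against chromosome 2 beyond 48 Mb and 4.41 against chromosomes 1 to 22. Median width ran from 3183 to 4108 bp over 5 alternatives. The median gap moved to 16275 bp when peaks up to 3 kb apart were joined, which removes the short gaps, and ran from 8910 to 13002 bp in the other 4. H3K27me3 regions and overlapping CHD5 peaks were 0 in all 3 and 4 alternatives, which could not have changed them, since the nearest region lay 330.2 kb from the locus. The highest count in another window was 38, and 47 with windows at every 10 kb, which were added after the data were seen. No paired analysis was possible because each group has 1 library. Depth, copy number and the background library given to the caller are unknown, and what they add to these counts was not tested.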

Other observations

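Of the 59 listed CHD5 peaks of at least 10 kb, 9 lay on chromosome 2, or 0.296% of its 3037 peaks, against 0.181% of the whole list. Of these 9, 8 were in the first 48 Mb and 4 in ALK. Of the 830-kb windows laid end to end over chromosomes 1 to 22, 2 held 4 such peaks, the ALK locus included, and no window held more. Among windows of this layout without H3K27me3 on chromosomes 1 to 22, 657 besides the ALK locus, the locus ranked 5 by number of CHD5 peaks. Of these 657, 455 held a CHD5 peak. The locus was chosen by its peak count and its lack of the mark, so the rank only describes the lists.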
